A study of Mus musculus with 4 samples.

Results

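The genes described here are the expressed genes of mouse chromosome 16, a set chosen because this chromosome had the lowest median of all chromosomes when cells lacking most of their Calu RNA were compared with control cells. A gene was a member when it lay on chromosome 16 and averaged at least 1 FPKM over the 4 libraries, and 334 of the 354 genes that met this were kept. FPKM is the number of sequenced fragments per kilobase of gene, scaled to sequencing depth, so levels can be compared between genes. The 20 others were left out by name (genes named Ndufb, Atp5, Rpl, Psm, Adamts, Col or Eph, and Fstl1, Alcam, Etv5, App, Sdf2l1, Dnajb11, Cct8, Myh11, Mylk and Mcm4, as far as they were expressed). The chromosome has 1607 genes in the deposited table of 54532, and 11885 genes of the whole genome reached 1 FPKM. Because the set was selected on the difference between the genotypes, the low level of the set as a whole is how it was found and not a result. The values below describe how that difference was spread over libraries, positions and genes.

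The libraries came from primary mouse cells labelled as lung fibroblasts, 2 with the genotype label Calu-WT (WT below) and 2 with the label Calu-KO. Calumenin, the product of Calu, binds calcium within the secretory pathway. How Calu was targeted, and the strain, age and sex of the mice, are not stated in the sources used here, and the titles of the Calu-KO libraries carry the letters KD. Whether the libraries of a genotype represent different animals or cultures is not stated in the labels, so a p-value here reflects just the spread among these 4 libraries, which may be technical. Calu itself, a chromosome 6 gene, dropped from 178 and 177 FPKM in the WT replicates to 14.9 and 10.9 FPKM in the Calu-KO replicates, a fall of 13.7-fold (adjusted p = 0.00493, limma).

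Mouse chromosome 16 has its centromere at one end and is a mosaic of blocks whose genes are kept together, in much the same order, on several human chromosomes. Read from the centromere, the blocks listed here correspond to human 16p13, to a short stretch of 8q11 and 12p11, and to 22q11. A long stretch of 3q and finally 21q follow. The lists do not cover the whole chromosome, and none covers the stretch between the 3q and 21q blocks. The block matching 22q11 holds the genes deleted in DiGeorge syndrome, and the distal block matching 21q holds the genes that segmental mouse models of Down syndrome carry in an extra copy. In fibroblasts the chromosome supplies, among others, receptors for interferons, the transferrin receptor and the transcription factors Snai2, Bcl6 and Ets2.

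Recovered reads were even between libraries, from 15635448 to 16510048, while genes with at least 1 read numbered 20477 and 20429 in WT and 19772 and 18739 in Calu-KO. For a gene of 1 kb, 1 read equalled 0.0611 and 0.0602 FPKM in WT and 0.0591 and 0.0684 FPKM in Calu-KO. The same share of reads thus gives a higher FPKM in Calu-KO replicate 2 than in the other libraries. Mitochondrial transcripts took 2.43% and 2.53% of reads in WT, beside 2.52% and 4.0% in Calu-KO. Among 11 fibroblast markers, 8 reached 1 FPKM (Vim, Col1a2, Col1a1, Fn1, S100a4, Pdgfrb, Col3a1 and Pdgfra), while Dcn and Lum were at 0. Macrophage markers reached 1 FPKM in 3 of 7 cases, with summed levels of 16 and 17.1 FPKM in WT and 7.63 and 6.56 FPKM in Calu-KO, and with Mrc1 and Adgre1 at 0. No endothelial marker of 6, 1 epithelial marker of 6 (Krt8) and 1 mesothelial marker of 5 (Msln) reached 1 FPKM. The part of these differences in the values below was not tested. In bulk RNA, fewer cells of a type and less RNA per cell cannot be told apart.

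Promoter sequences are shown for 4 members as examples, not as the extremes of the chromosome. Lztr1 and Thap7 are neighbours of the 22q11 block with lower RNA in both Calu-KO libraries, Hira stands at the far end of the same block, and Dcbld2 had the highest difference among the surface receptor genes, in the opposite direction. Each window runs 5′ to 3′ on the gene's own strand around the RefSeq start (GRCm38.p6), 300 bases long, and capitals mark any match, on either strand, to the ETS core CCGGAAG or to CCAAT. The Lztr1 window is chr16:17508962-17509261 on the plus strand, the Thap7 window chr16:17531003-17531302 on the minus strand, the Hira window chr16:18876500-18876799 on the plus strand and the Dcbld2 window chr16:58408285-58408584 on the plus strand.
Lztr1: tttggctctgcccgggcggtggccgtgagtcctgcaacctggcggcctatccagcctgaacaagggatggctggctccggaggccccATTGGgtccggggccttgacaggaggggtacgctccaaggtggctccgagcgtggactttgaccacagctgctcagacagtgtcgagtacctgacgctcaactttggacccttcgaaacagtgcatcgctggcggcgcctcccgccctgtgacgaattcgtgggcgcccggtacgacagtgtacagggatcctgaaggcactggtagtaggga
Thap7: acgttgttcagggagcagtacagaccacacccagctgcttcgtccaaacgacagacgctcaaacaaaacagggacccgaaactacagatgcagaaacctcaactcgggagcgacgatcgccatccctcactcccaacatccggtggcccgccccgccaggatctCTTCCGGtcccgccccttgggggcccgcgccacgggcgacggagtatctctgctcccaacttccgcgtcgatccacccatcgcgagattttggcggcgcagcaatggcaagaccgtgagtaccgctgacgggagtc
Hira: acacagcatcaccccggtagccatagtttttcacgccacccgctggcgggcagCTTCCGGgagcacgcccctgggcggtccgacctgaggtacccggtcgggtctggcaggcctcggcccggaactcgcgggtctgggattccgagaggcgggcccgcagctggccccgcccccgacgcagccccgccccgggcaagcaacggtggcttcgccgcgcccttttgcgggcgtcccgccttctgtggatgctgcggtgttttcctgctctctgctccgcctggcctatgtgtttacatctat
Dcbld2: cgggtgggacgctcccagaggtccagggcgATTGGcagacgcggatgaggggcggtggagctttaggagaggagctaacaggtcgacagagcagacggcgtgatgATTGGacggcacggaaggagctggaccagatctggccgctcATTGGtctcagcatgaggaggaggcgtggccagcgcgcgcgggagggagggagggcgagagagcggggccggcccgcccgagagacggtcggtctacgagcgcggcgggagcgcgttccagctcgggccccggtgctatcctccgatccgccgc

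The 4 windows are rich in G and C, at 63.3% for Lztr1, 62.0% for Thap7, 69.0% for Hira and 69.7% for Dcbld2. Thap7 and Hira each hold 1 match to the ETS core, Lztr1 holds 1 match to CCAAT and Dcbld2 holds 3. On the deposited coordinates Lztr1 starts at 17508688, so its window and its CCAAT match lie inside the gene. Hira starts at 18877037 on those coordinates, past the end of its window. None of these windows holds the cAMP response element TGACGTCA, the antioxidant response element core TGACNNNGC, the E-box CACGTG or the TATA box TATAAA. RefSeq windows were found for 257 of the 334 members (310 windows, since some genes have several starts). An ETS core was present in 23.2% of the members' windows, in 19.0% of windows of expressed genes on the other chromosomes and in 8.86% of all promoters in the table. A CCAAT box was present in 38.7% of the members' windows, 38.7% of those of expressed genes elsewhere and 37.4% of all. Between the members with both Calu-KO libraries below both WT libraries (181 windows) and those with both above (31 windows), an ETS core was present in 24.3% and 16.1%, and a CCAAT box in 35.9% and 45.2%. Shares for the other motifs in all members were 4.84% for the cAMP response element, 12.6% for the antioxidant element core, 11.9% for the E-box and 7.42% for the TATA box, beside 3.24%, 14.5%, 10.3% and 6.65% in expressed genes elsewhere. A match is a run of letters in this window, not a bound site.

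The difference was a small one carried by many genes. The median member was at 83.2% of its WT level, a median difference of -0.22 on the log2(FPKM + 1) scale (quartiles -0.45 and -0.03), and 262 of 334 members (78.4%) lay below 0. Taken alone, Calu-KO replicate 1 had a median of -0.28 and Calu-KO replicate 2 a median of -0.20, whereas WT replicate 2 differed from WT replicate 1 by 0.01. Over all 11885 tested genes the median was 0.01 and 49.3% lay below 0. Few members moved far. A difference of -1 or lower was seen in 11 members and of 1 or higher in 2, while 194 lay between -0.5 and 0.

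In absolute terms, the median member had a level of 6.94 and 6.98 FPKM in WT, against 5.62 and 5.87 FPKM in Calu-KO. The members took 2.05% and 2.07% of the reads of nuclear genes in WT and 1.69% and 1.76% in Calu-KO. Replicate 1 of Calu-KO lay below both WT libraries for 255 members and above both for 44, and replicate 2 lay below both for 213 and above both for 86. The 2 Calu-KO libraries moved to opposite sides of WT in 52 members. Beyond counting error the Calu-KO pair was the more variable pair. Over members with at least 100 reads in the pair, the median chi-square between replicates was 1.24 in WT (321 members) and 8.07 in Calu-KO (310 members).

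Both Calu-KO libraries lay below both WT libraries in 189 members (56.6%, beside 29.7% of all tested genes), and both lay above in 33 (9.88%, beside 32.0% of all tested genes). The other 112 members overlapped between genotypes. In the limma fit over all tested genes, 8 members were called lower at an adjusted p of 0.05 (1.83% of all tested genes were called lower) and 1 was called higher (0.942% of all tested genes). As the chromosome was picked by this same contrast, nothing is read from these shares. The counts of calls depended on single libraries, for the members as for all tested genes. No member was called lower without WT replicate 1 or without WT replicate 2 (0.32% and 0.286% of all tested genes), 113 were without Calu-KO replicate 1 (23.6%) and 83 without Calu-KO replicate 2 (9.51%). With 2 libraries against 2, an exact permutation test of a single gene cannot give a two-sided p below 0.333.

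Among the 20 chromosomes (19 autosomes and X) chromosome 16 ranked lowest in each Calu-KO library taken alone, with all its 354 expressed genes counted, at -0.28 and -0.21. Chromosome 10 came next, at -0.14 in both libraries, and chromosome 14 after it, at -0.09 and -0.10. At the other end stood chromosome 6, at 0.13 and 0.18, and chromosome 12, at 0.06 and 0.17. The medians of WT replicate 2 minus WT replicate 1 lay close to 0 on every chromosome. The 20 genes left out by name had a median of -0.44 and 16 of them lay below 0, so their removal made the chromosome's median slightly less low (-0.22 in place of -0.24).

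**Figure D1:**
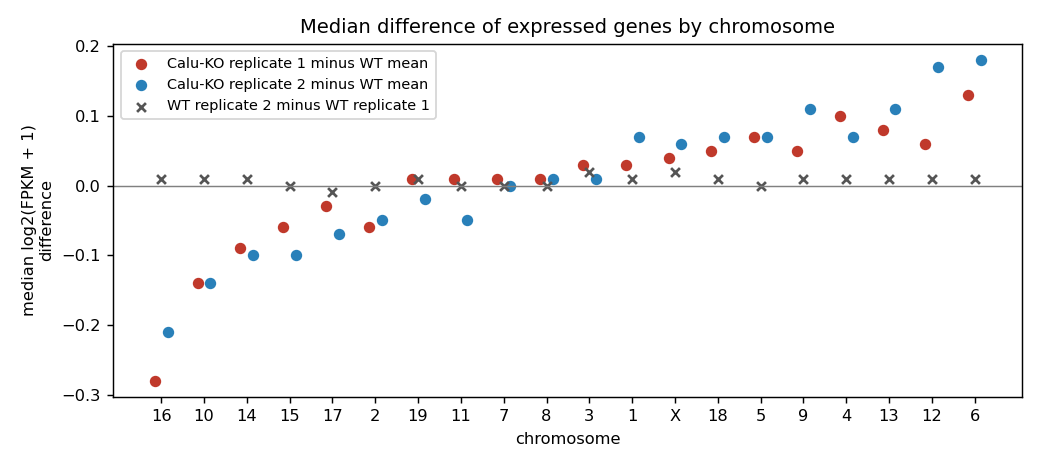
Median difference of expressed genes on each chromosome, on the log2(FPKM + 1) scale, for Calu-KO replicate 1 and replicate 2 against the WT mean (circles) and for WT replicate 2 against WT replicate 1 (crosses). Chromosome 16 is leftmost, at -0.28 and -0.21, and chromosome 10 follows at -0.14 in both libraries.

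Position was examined next, to see whether the difference was limited to one stretch. In bins of 10 Mb the median lay below 0 in both Calu-KO libraries in 9 of 10 bins. From the centromere on, the bin medians were -0.19 (36 genes), -0.33 (75 genes), -0.31 (44 genes), -0.16 (66 genes), -0.18 (23 genes) and -0.14 (24 genes). The gene-poor bins from 60 to 70 Mb (8 genes) and from 70 to 80 Mb (6 genes) were both at -0.02, and the latter was the bin in which the libraries differed in sign, at -0.13 in replicate 1 and 0.18 in replicate 2. The last 2 bins returned to -0.36 (9 genes) and -0.30 (43 genes). The bin from 60 to 70 Mb also had the lowest GC content, 40.7% for its median gene, against 52.4% in the first bin. With the trend on GC content and gene length taken out, those 2 bins were at -0.15 and -0.11 and the others between -0.41 and -0.18. In bins of 5 Mb, 15 of 20 were below 0 in both libraries, and 3 of the 5 exceptions lay between 65 and 80 Mb, where bins held 5 genes or fewer.

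**Figure D2:**
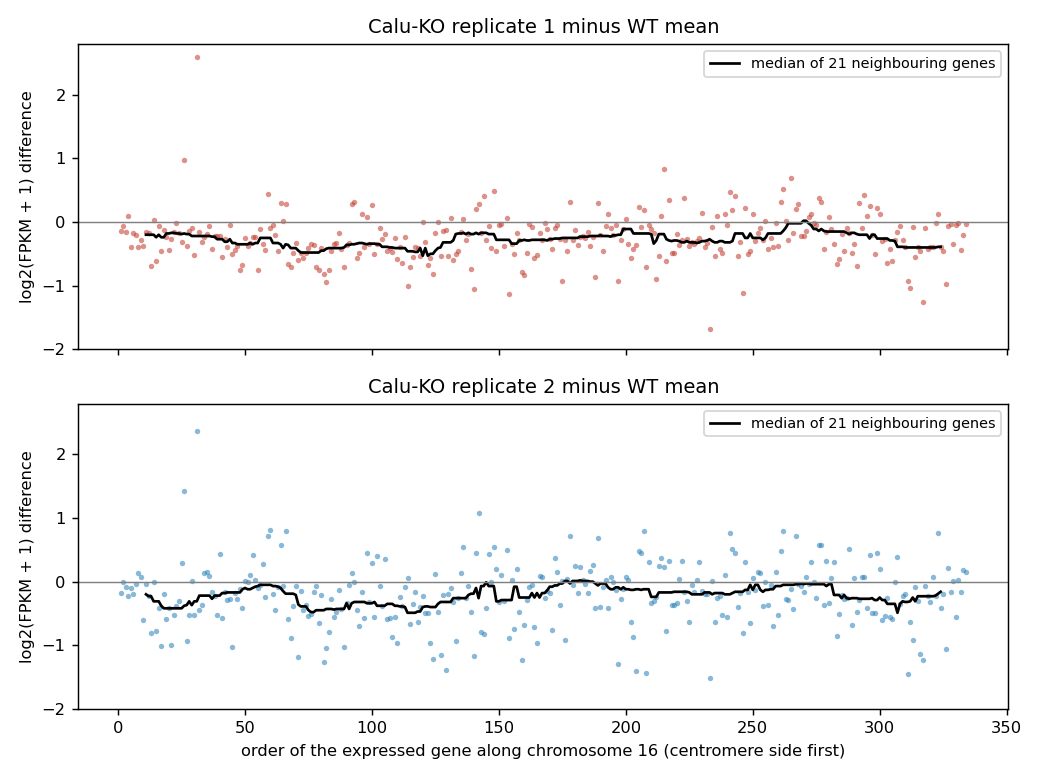
Difference of each of the 334 members from the WT mean on the log2(FPKM + 1) scale, in chromosome order, for Calu-KO replicate 1 (upper panel) and replicate 2 (lower panel), with the running median of neighbouring genes as a line. The line stays under 0 along most of the chromosome in replicate 1 and comes nearer to 0 in replicate 2, whose points are more widely scattered.

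The longest unbroken runs of neighbouring members below 0 lay close together. A run of 30 genes reached from Sept5 to Igf2bp2 (chr16:18620502-22163299, mm10), and a run of 25 genes from Mzt2 to Dgcr6 (chr16:15848441-18071632). Sept5 encodes a septin, a cytoskeletal GTP-binding protein, and Igf2bp2 an RNA-binding protein. Blocks are counted here by lists of human counterparts, written from general knowledge with earlier results known, which cover 236 of the 334 members. Some members within the span of a block are in no list, so counts for a block are counts of listed genes. Between these runs stood the 4 genes of the 22q11 list that lay above 0, Prodh, Rtn4r, Dgcr8 and Arvcf. Rtl10 and Gm15764, in no block list, also lay above 0 there, at 0.08 and 0.03.

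The 22q11 counterparts had the lowest median of the 5 blocks in each Calu-KO library as deposited, while with the GC and length trend removed the 8q11 and 12p11 block was lower in both. The 31 expressed genes of the 22q11 list had a median of -0.42 (-0.41 and -0.44 in the Calu-KO replicates), or 70.2% of WT. Both Calu-KO libraries lay below both WT libraries in 27 of them (87.1%) and above in 3 (9.68%). Over all tested genes these shares were 29.7% and 32.0%, and the chromosome was picked by this same contrast. Lztr1, an adaptor of a ubiquitin ligase that acts on RAS proteins, was at 15.3 and 14.3 FPKM in WT and fell to 7.21 and 6.65 FPKM in Calu-KO, 2.13-fold lower. Its neighbour Thap7, a zinc-finger transcription regulator, was at 8.83 and 8.70 FPKM and fell to 4.78 and 4.65 FPKM, 1.86-fold lower. Within each of these genes the replicates lay close together and the genotypes were far apart.

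At the ends of the 22q11 block, Top3b, a topoisomerase of DNA and RNA, went from 3.66 and 4.41 FPKM to 2.40 and 2.66 FPKM, and the histone chaperone Hira from 2.55 and 2.95 FPKM to 1.86 and 2.17 FPKM. Neither was called, although both Calu-KO libraries were under both WT libraries in each. Dgcr8, the RNA-binding partner of Drosha in microRNA maturation, was among the exceptions, at 5.03 and 4.88 FPKM in WT and 5.31 and 7.11 FPKM in Calu-KO. Arvcf, a catenin-family protein, was another, at 2.53 and 2.55 FPKM against 3.28 and 3.33 FPKM.

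Among the block lists, 16p13 had the highest share of genes below 0. Of its 49 listed expressed genes 45 lay below 0, the median was -0.24 (-0.25 and -0.20) and the quartiles were -0.37 and -0.11. Both Calu-KO libraries were below both WT libraries in 32 genes (65.3%, beside 29.7% of all tested genes) and above in 1 (2.04%, beside 32.0%). That gene was Ppl, which encodes periplakin, a linker of desmosomes and intermediate filaments. Members that lie within the span of the list but are not in it went both ways, among them Pdxdc1 at 0.58 and Socs1 at -0.56. The end genes of the list, Cluap1 of the cilium and Abcc1, a drug and glutathione-conjugate exporter, differed by -0.07 and -0.26. Cluap1 was at 3.67 and 3.51 FPKM in WT and 3.89 and 2.91 FPKM in Calu-KO, so that its genotypes overlapped, and Calu-KO replicate 1 alone gave 0.09.

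The 21q counterparts, 45 expressed genes, had a median of -0.30 (-0.30 and -0.23), with 36 genes below 0. In this block 2 genes were called lower, Cbr3 and Ets2. Hspa13, a chaperone at its centromeric end, was at 12.2 and 12.5 FPKM in WT and 8.91 and 9.38 FPKM in Calu-KO. Zbtb21, a transcription regulator at its distal end, was at 5.0 and 4.79 FPKM against 4.10 and 5.67 FPKM and overlapped. Sod1, the cytosolic superoxide dismutase, showed the replicates pulling apart, at 35.7 and 37.0 FPKM in WT and 45.1 and 29.6 FPKM in Calu-KO.

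The 3q list was the largest, with 103 expressed genes, a median of -0.18 (-0.28 and -0.14) and 78 genes below 0. It held 3 of the called genes (Ccdc80, Pdia5 and Xxylt1). At the other extreme it held 5 of the 10 highest protein-coding members whose genotypes did not overlap (Dcbld2, Dzip3, Bcl6, Tfrc and Heg1). Mb21d2, also called lower, and Pla1a, another of those 10, lie within its span but are not listed. The first gene listed, Dvl3 of the WNT pathway, was at 7.51 and 6.83 FPKM in WT and 5.12 and 4.25 FPKM in Calu-KO. The last listed, the ciliary GTPase Arl13b, was at 5.22 and 5.12 FPKM against 4.60 and 5.48 FPKM. The small 8q11 and 12p11 block (8 genes) had a median of -0.26 but a wide gap between replicates, -0.40 and -0.11. Dnm1l, the GTPase of mitochondrial fission at its distal end, was at 20.2 and 21.5 FPKM in WT and 14.7 and 18.7 FPKM in Calu-KO. With the GC and length trend removed the block medians were -0.22 for 16p13, -0.39 for 8q11 and 12p11, -0.43 for 22q11, -0.30 for 3q and -0.34 for 21q. Across the alternatives the 22q11 median ranged from -0.53 to -0.41 and the 3q median from -0.30 to -0.14.

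Neighbouring members are not independent measurements. On the table's coordinates 95 members overlap another member, and since the use of strand in counting is not stated, reads of overlapping genes cannot be told apart. Of 26 pairs that start within 1000 bases of each other on opposite strands, 18 had both genes below 0, 1 had both above and 7 had opposite signs. In 10 of these pairs the genes overlap, and the 16 pairs that do not overlap split into 11, 1 and 4. Hira and Mrpl40, a mitochondrial ribosomal protein gene, start 175 bases apart on these coordinates. Their promoter windows, placed by RefSeq starts instead, share 212 bases, among them part of the Hira window printed above. Hira and Mrpl40 differed by -0.32 and -0.77. The pair with both genes above 0 was Dzip3, a ubiquitin ligase, and Cip2a, an inhibitor of the phosphatase PP2A, at 0.61 and 0.36 with 20 bases between their starts.

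By role, every list of members had a median below 0 in both Calu-KO libraries. The lists cover 173 members, were written from general knowledge with earlier results of these data known, and are set beside the median of 0.01 over all tested genes. Nothing is called particular to a role.

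**Figure D3:**
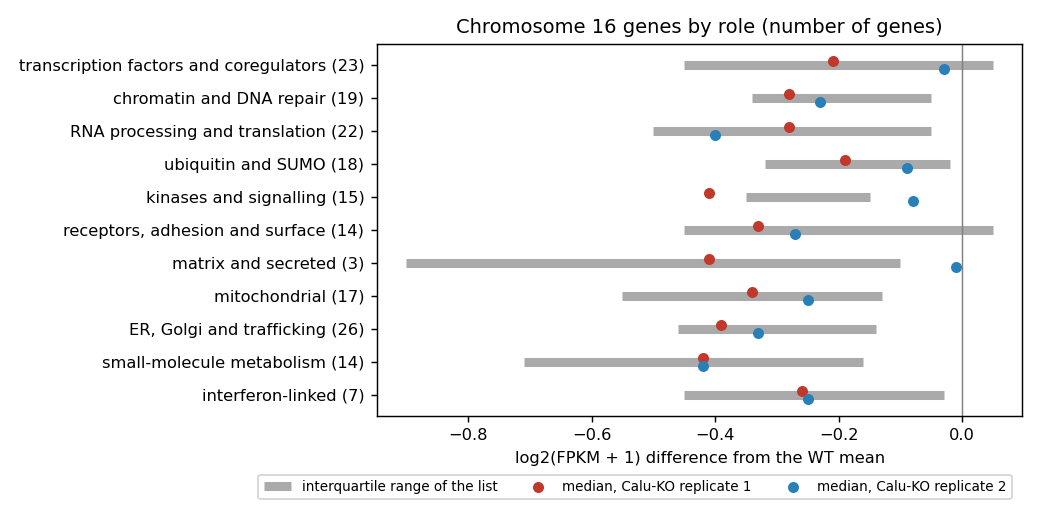
Members grouped by role, with the number of genes in parentheses. Grey bars span the interquartile range of the log2(FPKM + 1) differences, and circles give the median for Calu-KO replicate 1 and replicate 2. All medians lie below 0, from -0.42 to -0.01, and those of kinases and signalling genes are far apart, at -0.41 and -0.08.

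Transcription factors and coregulators (23 genes) had a median of -0.10 (-0.21 and -0.03) with 14 genes below 0, and a median of -0.26 with the GC and length trend removed. Ets2, a founding member of the ETS family, was called and fell from 20.9 and 21.2 FPKM to 10.2 and 9.56 FPKM, 2.13-fold lower. Gabpa, another ETS factor, was the list's most abundant gene and stayed closer to WT, at 21.7 and 22.4 FPKM against 19.2 and 18.8 FPKM. On the higher side stood Snai2, a repressor of epithelial genes, at 12.4 and 13.6 FPKM in WT and 16.3 and 19.8 FPKM in Calu-KO, and Bcl6, a repressor best known from germinal-centre B cells, at 2.11 and 2.34 FPKM against 3.52 and 3.69 FPKM. Vgll3, a cofactor of TEAD factors, was at 9.28 and 9.47 FPKM against 12.4 and 14.4 FPKM. In none of these 3 did the genotypes overlap, and none was called.

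Genes of chromatin and DNA repair (19 genes) had a median of -0.22 with 15 below 0 and 0 called. Hmgn1, a nucleosome-binding protein of the Down syndrome region and the most abundant gene of the list, was almost level, at 133 and 139 FPKM in WT and 134 and 122 FPKM in Calu-KO. Rfc4, a subunit of the clamp loader of DNA replication, was at 36.3 and 39.7 FPKM against 31.2 and 28.1 FPKM. Rnf168, a ubiquitin ligase of the DNA damage response, was at 17.7 and 18.2 FPKM in WT, and its Calu-KO libraries fell on either side, at 16.7 and 23.6 FPKM. Prkdc, the catalytic subunit of DNA-dependent protein kinase, was above WT in both, at 2.98 and 2.94 FPKM against 3.82 and 5.84 FPKM.

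RNA processing and translation (22 genes) had a median of -0.35, with 19 genes below 0 and 0 called. Both Calu-KO libraries lay below both WT libraries in 14 (63.6%, beside 29.7% of all tested genes). The scaffold of translation initiation Eif4g1 was level, at 113 and 114 FPKM in WT and 100 and 123 FPKM in Calu-KO. Rsl1d1, a nucleolar protein of ribosome assembly, was at 73.3 and 78.9 FPKM against 47.3 and 56.8 FPKM, 1.46-fold lower. The RNA helicase Eif4a2 was at 48.2 and 52.4 FPKM against 44.4 and 28.5 FPKM, a difference carried mostly by Calu-KO replicate 2.

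Mitochondrial genes (17 genes) had a median of -0.20, with 15 below 0 and 0 called. The import receptor Tomm70a was at 30.2 and 30.5 FPKM in WT and 25.3 and 29.3 FPKM in Calu-KO, and the mitochondrial chaperone Trap1 at 30.4 and 28.4 FPKM against 25.9 and 25.7 FPKM. Slc25a1, the citrate carrier of the inner membrane, was at 22.7 and 21.9 FPKM against 17.2 and 17.5 FPKM. The lowest member of the list was Mrps6, a protein of the small mitochondrial ribosomal subunit, at 24.6 and 25.7 FPKM against 12.8 and 8.53 FPKM, 2.36-fold lower and not called. Mrps6 overlaps Slc5a3, the myo-inositol transporter, and their promoter windows share 286 bases. Slc5a3 was at 13 and 13.8 FPKM in WT and 6.03 and 8.31 FPKM in Calu-KO.

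Genes of the endoplasmic reticulum (ER), Golgi and vesicle traffic (26 genes) had a median of -0.34, with 22 below 0. Both Calu-KO libraries lay below both WT libraries in 19 (73.1%, beside 29.7% of all tested genes). Pdia5, a disulphide isomerase of the ER, was called and fell from 27.8 and 29.3 FPKM to 14.5 and 11.1 FPKM, 2.23-fold lower. Ap2m1, a subunit of the clathrin adaptor AP-2, was at 59.1 and 54.9 FPKM against 38.9 and 43.0 FPKM. Tfg, a protein of ER exit sites, was at 50.5 and 53.2 FPKM against 38.4 and 39.9 FPKM. Chmp2b, of the ESCRT-III membrane scission machinery, was at 35.0 and 36.3 FPKM against 34.5 and 29.6 FPKM. In each of these the lower WT library lay above the higher Calu-KO library, for Chmp2b by little.

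Small-molecule metabolism (14 genes) had a median of -0.40 with 12 genes below 0. Cbr3, a carbonyl reductase, was called and fell from 25.8 and 23.3 FPKM to 9.62 and 9.82 FPKM, 2.52-fold lower. The SD of its Calu-KO replicates was 0.143 FPKM (n = 2). Gart, of purine synthesis, was at 26.9 and 27.9 FPKM against 22.3 and 27.2 FPKM, and Umps, of pyrimidine synthesis, at 23.8 and 25 FPKM against 23.2 and 24.7 FPKM. Both overlapped between genotypes.

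Kinases and signalling genes (15 genes) all lay below 0, with a median of -0.30 and 0 called. On the FPKM scale this rested largely on Calu-KO replicate 1 (median -0.41, against -0.08 in replicate 2). Pak2, a RAC and CDC42 effector kinase, was at 24.6 and 24.1 FPKM in WT and 19.7 and 25.8 FPKM in Calu-KO, and gave 0.08 without Calu-KO replicate 1. In recovered reads, however, Pak2 was lower in both Calu-KO libraries, at 2269 and 2561 against 2735 and 2725 in WT. Tnk2, a non-receptor tyrosine kinase, was at 27.6 and 25.7 FPKM against 21.6 and 25.5 FPKM. Ubiquitin and SUMO genes (18 genes) had a median of -0.13, with 14 below 0 and 0 called. Usp7, a deubiquitinase, was level at 20.8 and 21.3 FPKM against 18.3 and 23.5 FPKM, Ube2l3, a ubiquitin-conjugating enzyme, was at 21.2 and 23.5 FPKM against 17.1 and 19.9 FPKM, and Klhl22, a cullin adaptor, at 18.4 and 18.8 FPKM against 16.4 and 16.9 FPKM.

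Receptors, adhesion and surface genes (14 genes, with Lztr1 placed among them by the list) had a median of -0.32 with 10 below 0. The integrin subunit Itgb5 was at 62.6 and 60.7 FPKM in WT and 44.9 and 58.0 FPKM in Calu-KO, and the tetraspan protein Emp2 at 32.6 and 32.0 FPKM against 23.7 and 28.6 FPKM. Tfrc, the transferrin receptor, was higher in both Calu-KO libraries, at 46.8 and 46.6 FPKM against 58.0 and 76.9 FPKM. The interferon receptor genes sit together in the 21q block and were lower in both Calu-KO libraries. Ifnar1 was at 15 and 13.9 FPKM against 8.83 and 11.9 FPKM, Ifnar2 at 9.96 and 10.3 FPKM against 8.05 and 6.31 FPKM, and Ifngr2 at 15.4 and 17.4 FPKM against 12 and 10.8 FPKM. The interferon-linked list as a whole (7 genes) had a median of -0.40 with 5 genes below 0, and 2 genes were higher in both Calu-KO libraries.

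Of matrix and secreted genes 3 were members. Ccdc80, a secreted protein that binds extracellular matrix, was the lowest of all 334 members, at 4.33 and 3.79 FPKM in WT and 0.579 and 0.765 FPKM in Calu-KO, a fall of 6.04-fold. Vasn, a membrane-anchored binder of TGF-beta, was level at 7.01 and 6.57 FPKM against 6.94 and 6.71 FPKM. Masp1, a serine protease of the complement lectin pathway, was at 5.35 and 5.58 FPKM against 3.85 and 5.41 FPKM.

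Of the 8 genes called lower, 7 are in 3 of the block lists. Mb21d2 is in none, although it lies between the end genes of the 3q list. Ccdc80 (chr16:45093402-45128077, mm10) differed by -1.60 with a standard error of 0.16 on the log2(FPKM + 1) scale, Cbr3 (chr16:93683215-93690990) by -1.25 (SE 0.11) and Pdia5 (chr16:35397312-35490873) by -1.11 (SE 0.15). Ets2 (chr16:95702075-95721051) differed by -1.02 (SE 0.11) and Lztr1 (chr16:17508688-17526333) by -0.99 (SE 0.11). The remaining 3 were Mb21d2, Thap7 and Xxylt1. Mb21d2, of the nucleotidyltransferase family of cGAS, fell from 6.54 and 6.09 FPKM to 2.34 and 2.98 FPKM, 2.37-fold lower. Xxylt1, a xylosyltransferase that extends sugars on NOTCH repeats, fell from 19.4 and 20.7 FPKM to 10.7 and 12.1 FPKM, 1.76-fold lower. All 8 are protein coding, and in each both Calu-KO libraries lay below both WT libraries.

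**Figure D4:**
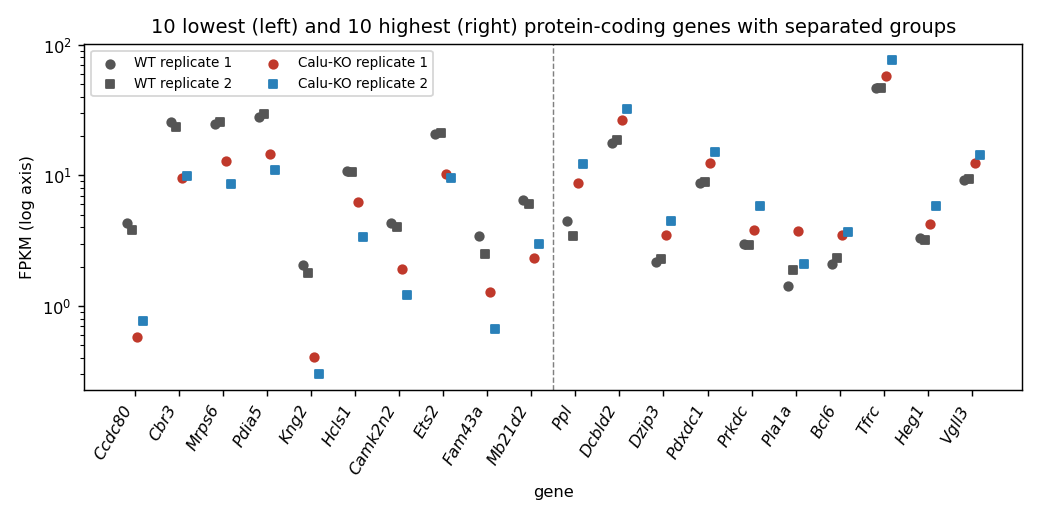
FPKM (log axis) in each library of the 10 protein-coding members with the lowest and the 10 with the highest difference among those whose genotypes did not overlap. WT replicates (grey) nearly coincide for most genes, while Calu-KO replicates (red and blue) are further apart, for example 12.8 and 8.53 FPKM for Mrps6.

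Some of the lowest protein-coding members were not called. Kng2, a kininogen, was at 2.06 and 1.78 FPKM in WT and 0.411 and 0.300 FPKM in Calu-KO, 5.40-fold lower at a low level. Hcls1, a cortactin-related protein of blood cells, was at 10.9 and 10.7 FPKM against 6.25 and 3.39 FPKM. The macrophage marker sum was also lower in both Calu-KO libraries, as given above, and a link of that sum to Hcls1 was not tested. Camk2n2, an inhibitor of calmodulin kinase, was at 4.35 and 4.01 FPKM against 1.92 and 1.22 FPKM. Fam43a was at 3.42 and 2.49 FPKM against 1.29 and 0.668 FPKM. The genotypes were well separated in all 4, with Calu-KO replicate 2 the lower of its pair each time.

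Against the trend, both Calu-KO libraries lay above both WT libraries in 30 protein-coding members (9.87%, beside 32.0% of all tested genes), and none was called. The genes that follow are among the 10 of these with the highest difference. Ppl was at 4.48 and 3.42 FPKM in WT and 8.74 and 12.3 FPKM in Calu-KO, 2.66-fold higher. The summed epithelial markers, of which just Krt8 reached 1 FPKM, were at 2.79 and 2.37 FPKM in WT and 0.0733 and 0.213 FPKM in Calu-KO. A link of this low sum to Ppl was not tested. Dcbld2, a neuropilin-like surface receptor, was at 17.7 and 18.7 FPKM against 26.5 and 32.5 FPKM, 1.62-fold higher. Pdxdc1, a decarboxylase-domain protein, was at 8.79 and 8.86 FPKM against 12.4 and 15.1 FPKM, and Dzip3 at 2.17 and 2.31 FPKM against 3.47 and 4.47 FPKM. Heg1, a mucin-like receptor of vascular development, was at 3.32 and 3.22 FPKM against 4.26 and 5.82 FPKM. Pla1a, a phospholipase specific for phosphatidylserine, was at 1.43 and 1.89 FPKM against 3.74 and 2.11 FPKM. In 9 of the 10, Pla1a being the exception, Calu-KO replicate 2 was the higher of its pair.

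The 1 gene called higher is not protein coding. Gm23706 is a small nucleolar RNA gene of 82 bases (chr16:8480660-8480741) inside Mettl22, with 0 reads in both WT libraries and 7 and 5 reads in the Calu-KO libraries. Counted against a floor of 3 reads over the group, it was at least 4.16-fold higher. It passed the 1 FPKM filter only through the Calu-KO libraries, so a difference was built into its selection. Of all members, 3 had a WT mean under 1 FPKM and 10 had a Calu-KO mean under 1 FPKM, Ccdc80, Kng2 and Fam43a among the 10, and the same holds for these. The 30 members that are not protein coding (pseudogenes and short or long non-coding RNAs) had a median of -0.14 with 21 below 0, against -0.25 and 241 of 304 for the protein-coding members. Processed pseudogenes, 14 of the 30, can share reads with their parent genes, so their levels are uncertain.

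Base composition and length moved with the difference, on chromosome 16 as elsewhere. Split at GC contents of 46.2% and 52.6%, which divide all tested genes into 3 groups of equal size by GC content of the longest transcript, members had medians of -0.11 (114 genes), -0.30 (139 genes) and -0.35 (81 genes) from lowest to highest GC. Tested genes of the other chromosomes had 0.15, 0.02 and -0.13 in the same groups. The chromosome was chosen for its low median in this contrast, so lower medians of members within groups are not a result. The part of base composition and length in the difference was not tested. By length, members had -0.35, -0.27 and -0.14 from the shortest to the longest of 3 equal groups of tested genes, and genes elsewhere -0.13, -0.01 and 0.14. By level, members had -0.19 from 1 to 5 FPKM, -0.27 from 5 to 20 FPKM and -0.18 above, and genes elsewhere -0.02, 0.03 and 0.02. The median member has a GC content of 48.2%, close to the 49.4% of all tested genes. With the trend on GC content and length removed from each library, the members' median was -0.25 beside 0.02 for all tested genes, and 80.5% of members lay below 0.

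**Figure D5:**
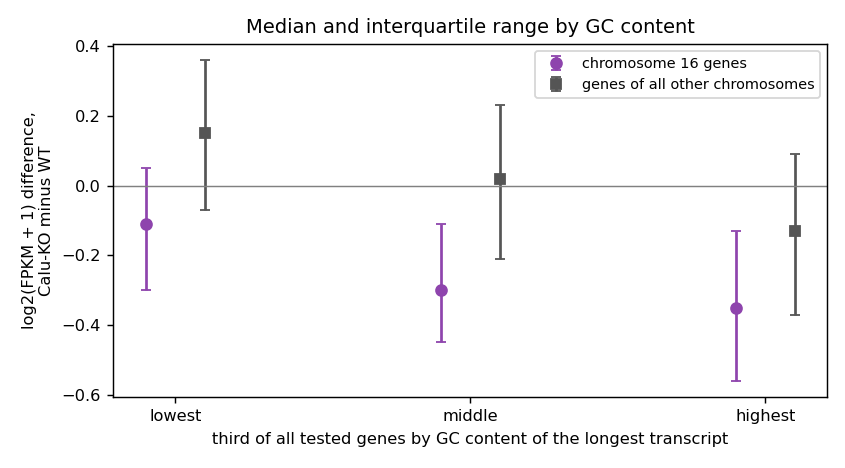
Median (symbol) and interquartile range (bar) of the log2(FPKM + 1) difference in 3 equal groups of tested genes by GC content, for the chromosome 16 members (purple circles) and tested genes of all other chromosomes (grey squares). Both series decline from low to high GC, and the members' medians of -0.11, -0.30 and -0.35 lie below those of the other chromosomes, 0.15, 0.02 and -0.13.

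Genes too weakly expressed to be members had not been used to choose the chromosome. On chromosome 16, 108 genes averaged under 1 FPKM yet had at least 20 reads over the 4 libraries. Their median log2 ratio of scaled reads, Calu-KO to WT, was -0.71 (-0.66 and -0.85 in the replicates), and 80 of 108 (74.1%) lay below 0. The same measure was -0.10 over 3459 such genes elsewhere, of which 55.1% lay below 0, and chromosome 16 again stood lowest of 20, before chromosome 14 at -0.39 and chromosome 10 at -0.24. Their summed scaled reads were 2909 and 3122 in WT and 1990 and 2104 in Calu-KO. In 56 of the 108 both Calu-KO libraries lay below both WT libraries and in 7 above, against 1041 and 687 of the 3459. These genes come from the same libraries as the members and share their depth and preparation, and no test was made over them.

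Among the low genes with the most reads, Snx29, a sorting nexin, had 122 and 143 reads in WT against 36 and 72 reads in Calu-KO. Fgd4, an exchange factor for CDC42, had 110 and 121 reads against 40 and 55. Hspbap1 had 128 and 155 reads against 91 and 69. The other 3 of the 6 low genes with the most reads overlapped between genotypes. Hlcs, which attaches biotin to carboxylases, had 87 and 113 reads against 91 and 74, and B230307C23Rik had 66 and 99 reads against 89 and 71. Parp14, an interferon-inducible ADP-ribosyltransferase, was the third of these, with 84 and 123 reads in WT against an overlapping 120 and 151 in Calu-KO. Just inside the 1 FPKM threshold lay Gnb1l (mean 1.0498 FPKM), Socs1, an inhibitor of cytokine signalling (1.0993 FPKM), and Gm9575 (1.1308 FPKM), and just outside Gm16310 (0.9887 FPKM), Sept12 (0.9836 FPKM) and B230307C23Rik (0.9696 FPKM). Socs1 was at 1.51 and 1.49 FPKM in WT and 0.712 and 0.682 FPKM in Calu-KO, and Gm16310 at 1.40 and 1.32 FPKM against 0.739 and 0.499 FPKM.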

How the data were processed

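Per the labels' protocols, total RNA was extracted with TRIzol and sequenced in paired ends on an Illumina NovaSeq, and reads were aligned with HISAT2 2.0.5, to mm10 per the submitters' processing notes. The read counter, annotation, use of strand and library preparation kit are not stated there. The authors deposited FPKM values for 54532 genes in 4 libraries, with each gene's length and coordinates per the file headers. Multiplied by gene length, 100% of the values in a library were whole multiples of a single step (tolerance 0.001 reads); these multiples were taken as reads, with no count model fitted to them. Totals are in the report, and counts cover counting error only.

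Genes averaging 1 FPKM or more were analysed as log2(FPKM + 1), which understates the change of low genes, with limma 3.58.1 in R 4.3.3 (eBayes, prior varying with intensity; two-sided; Benjamini-Hochberg over 11885 genes, threshold 0.05). Folds are ratios of mean FPKM. Rises and falls are named only for called genes. Low genes were compared as log2 ratios of scaled reads with 0.5 added. GC content came from the longest GENCODE M21 transcript, known for 99.92% of tested genes and 100% of members. On chromosome 16, 2 date-like names were replaced by identifier (Sept5, Sept12). Scripts were tested on simulated data.

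Members, gene lists, blocks of human counterparts and tests were chosen with earlier results of these data known. Named genes were the 10 lowest and 10 highest protein-coding members with separated genotypes. Added to these were the 3 most abundant and the called members of each role list. The end genes of each block list and the genes next to the threshold completed them. A gene that this rule took is not reported here. Arvcf, Dgcr8, Prodh, Rtn4r, Rtl10, Gm15764, Slc5a3, Mrpl40, Cip2a, Thap7 and Xxylt1, the ends of runs and the low genes were named after their values were seen. Alternatives were other pseudocounts, filters and scalings, a replicate block and leaving out each library, and, chosen after seeing the data, removal of a loess trend on GC content and length and a fit of protein-coding genes only.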

Additional observations from a re-analysis of the deposited data

How the results depend on the processing

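The median difference of the members lay between -0.31 and -0.20 over the 13 alternatives run. Rescaling to equal total reads gave -0.31, and moved the median of all tested genes from 0.01 to -0.09. Leaving out each library in turn gave -0.28 to -0.20. The count called lower, 8 as reported, was 0 without a filter on low values (in limma 0 genes of the whole table passed, and 113 members among 3886 genes had an unadjusted p under 0.05), 20 with the GC and length trend removed (2.83% of all tested genes), 29 with protein-coding genes only (4.37%), and 0 to 113 without single libraries (0.286% to 23.6%). Without WT replicate 1 or WT replicate 2 it was 0, with 38 members lower at an unadjusted p under 0.05 each time, among 613 and 615 tested genes. The count called higher, 1 as reported, was 0 with a filter of 5 FPKM (1.19%), 0 with no filter, 3 with the GC and length trend removed (2.23%), 2 with protein-coding genes only (2.68%), and 1 to 34 without single libraries (0.0673% to 24.6%). When a library was left out, the lone library of its genotype was assumed to vary like the other pair. The causes of these changes were not tested.

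With the replicate number as a block, 16 members were called lower (312 of all tested genes, 2.63%) and 2 higher (181 of all, 1.52%). The replicate numbers did not pair the libraries, as the deviations of same-numbered libraries correlated at 0.02 over all tested genes.

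In bins of 5 Mb, 15 of 20 were below 0 in both Calu-KO libraries. Of 801 values of the 63 named genes under alternatives, 781 kept the sign reported, and 53 genes kept it throughout. The 10 others were all reported within 0.14 of 0. The planned count models on recovered reads were not run, because the deposited unit is FPKM. With 2 libraries a genotype, a difference in 1 gene could not be separated from the spread of the Calu-KO pair unless it was large.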
